A study of Mus musculus with 7 samples.

Results

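The 10 genes described here encode proteins linked to the making of antibody RNA, and relatives or partners of such proteins. The steps run from transcription, elongation and 3′ end formation to splicing and the poly(A) tail. The genes are Ell2, Ell, Eaf1, Eaf2, Cstf2, Hnrnpll, Zfp318, Tent5c, Tent5a and Pou2af1. They were taken by name from a table of 48795 mouse genes, and all 10 were found and tested. The table holds bulk RNA sequencing of B-lineage cells out of spleens of wild-type female C57BL/6 mice, aged 8 to 12 weeks, 10 days after an intravenous injection of sheep red blood cells. Memory B cells (MBCs; 3 libraries) had been sorted as B220+, CD138 negative, IgD negative, CD38+ and CD273+ cells, and plasma cells (PCs; 4 libraries) as B220 low, CD138+ and IgD- cells. Both groups share the strain, the sex, the immunization and the enrichment over CD43 beads before sorting. The labels do not say whether libraries of a group came from separate mice, so the tests measure the spread between libraries, which may be partly technical.

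A B cell that becomes a PC turns from a membrane-bound antibody to a secreted one and makes far more of it. Which form is made depends on where the heavy chain RNA is cut and polyadenylated: use of the upstream poly(A) site, helped by the elongation factor ELL2, gives the secreted form, and splicing past it gives the membrane form. ZFP318 lets transcripts run on from the IgM to the IgD exons in resting B cells, HNRNPLL changes exon choice in PCs, TENT5 enzymes lengthen the poly(A) tails of secretory mRNAs, and POU2AF1 (OCA-B) is the coactivator that OCT1 and OCT2 bring to immunoglobulin promoters. The values below are per gene, so they do not show which poly(A) site or exon was used. Nor can fewer cells expressing a gene be told apart from less of its RNA per cell in bulk libraries.

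Values are given as scaled TPM. TPM (transcript abundance) is a unit that divides reads by gene length and by the library total, and it was divided in each library by its median ratio to the mean library. This step was used because immunoglobulin genes took between 49.4% and 55.9% of the TPM of PC libraries and between 1.65% and 3.16% of that of MBC libraries, which lowers every other gene of a PC library. Mitochondrial transcripts took 33.2%, 33.5% and 19.7% of the TPM of MBC replicates 1 to 3 and 8.10% to 9.80% in PCs. This share, a sign of RNA quality, thus differed between the groups and in the library labelled MBC replicate 3. Immunoglobulin transcripts lower it in PC libraries too, so the group difference cannot be read as RNA quality alone. Genes above 0 numbered 12983, 11527 and 18061 in MBC replicates 1 to 3 and 14463 to 16768 in PC libraries, so MBC replicates 1 and 2 had the fewest. TPM keeps no read totals, so the depth is unknown and no counting floor is given. The library labelled MBC replicate 3 stood apart from the other MBC libraries in its likeness to PCs. Its Pearson's r with the PC libraries was 0.70 to 0.777 across the 11573 genes tested, and 0.681 and 0.687 with the other MBC libraries. MBC replicates 1 and 2 were no more alike, at 0.675 with each other, and were at 0.537 to 0.564 with PCs. PC libraries were at 0.85 to 0.957 among themselves. The transcripts of the sorting markers CD38 and CD273 were low in MBC replicate 3. Cd38 was at 6.77 scaled TPM, against 130 and 186 in MBC replicates 1 and 2, and 9.89 to 21.3 in PCs. Pdcd1lg2 (CD273) was at 43.3 and 24.4 scaled TPM in MBC replicates 1 and 2, 0 to 2.84 in PCs and 2.59 in MBC replicate 3. Of the marker lists, 5 germinal center (GC) genes summed to 592 scaled TPM in it, 230 and 232 in the other MBC libraries and 54.5 to 121 in PCs, and 5 genes of dividing cells to 703, 104 and 116, and 369 to 478. The 5 PC markers summed to 130 to 186 scaled TPM in the MBC libraries and 8742 to 14574 in PCs, with Sdc1 (CD138) at most 0.0585 in MBCs and 49.6 to 78.1 in PCs, and the 5 B cell markers to 1347 to 2802 and 721 to 919. The 6 T cell genes summed to 0 to 23.8 scaled TPM over the MBC libraries and 12.8 to 23.7 over the PC libraries, but through different genes: Cd3e was 0, 0 and 0.658 in the former and 3.86 to 14.2 in the latter, while Lck was 14.3, 0 and 23.0 against 0.629 to 5.03, and Cd8a was at 0 in all libraries but PC replicate 4 (0.502). The 5 myeloid genes summed to 2.32 to 29.0 and 2.15 to 7.33, the 4 platelet genes to 0 to 4.58 and 0.0297 to 1.17, and the 6 erythroid genes to 4524 in MBC replicate 2 and at most 122 in any other library. Each result below is given with all libraries and, where it matters, without the library labelled MBC replicate 3. The part that these markers or the mitochondrial share have in the results was not tested.

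A gene was called where limma, fitted to log2(scaled TPM + 1) of all 11573 genes tested, gave a Benjamini-Hochberg adjusted p under 0.05 and a log2 fold change of at least 1 in size. Fold changes are PC minus MBC on that scale, where the change of a low gene comes out too small. Of the 10 genes, 4 were called higher in PCs (Tent5c, Ell2, Hnrnpll and Pou2af1), 0 were called lower and 6 were not called. Hnrnpll passed the filter on low values only through the PC libraries, where it is high, and without it 3 of 9 were called higher. At an unadjusted p under 0.05 in limma, 6 of the 10 were higher, with Hnrnpll, Eaf2 and Ell included, and 0 lower. Among all 11573 genes these counts were 1770 and 1033. Over all genes tested, 6.41% were called higher and 2.14% lower, a split of 742 to 248 genes that became 472 to 3018 with TPM as deposited, where 3 of the 10 were called higher and 1 lower. The median log2 fold change of the 10 was 1.67 (1.16 without Hnrnpll), and that of all genes tested 0.14. With the library labelled MBC replicate 3 left out, 6 of the 10 were called higher, again with Hnrnpll among them and with Eaf2 and Ell added. Zfp318 was called lower. In that fit 13.8% of all genes were called higher and 7.94% lower. The groups did not overlap for 5 of the 10 genes, namely the 4 called ones and Eaf2 (4 of 9 without Hnrnpll), and for 21.7% of all genes tested.

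**Figure D1:**
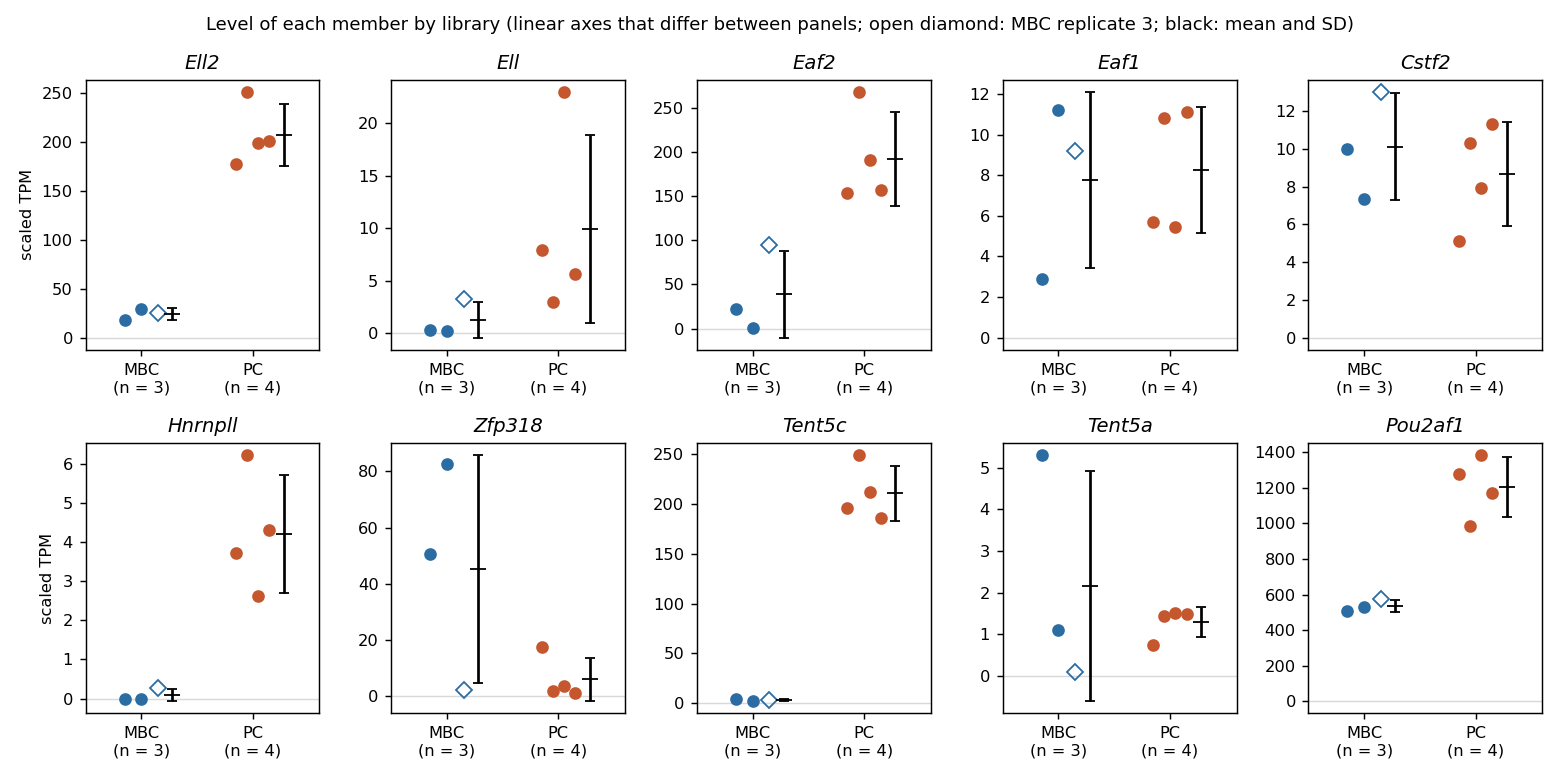
Scaled TPM (linear vertical axes, which differ between panels) of the 10 genes in the 3 MBC libraries (blue) and the 4 PC libraries (orange); open diamonds mark MBC replicate 3, and black bars give the mean and SD. Tent5c, Ell2, Hnrnpll, Pou2af1 and Eaf2 have no MBC library as high as the lowest PC library, and Zfp318 is high in MBC replicates 1 and 2 alone.

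The start regions of Ell2, Tent5c and Pou2af1 are shown as those of the called genes that had one, although the direction of Pou2af1 depended on the scaling. Each is a RefSeq window on GRCm38.p6, from 250 bases before to 50 bases after the annotated start, printed 5′ to 3′ along the gene. The RefSeq start lies 727 bases inside the GENCODE gene for Ell2 and 132 bases inside it for Tent5c, and 18 bases before it for Pou2af1, so the Ell2 window falls wholly within the GENCODE gene. Of the members, 9 of the 10 genes had a window, and Hnrnpll did not. Capitals mark any match, on either strand, to 5 motifs: the octamer ATGCAAAT bound by OCT factors, TGACGTGG (an unfolded protein response element) and CCACG (part of the endoplasmic reticulum stress element), both linked to XBP1, the CCAAT box bound by NF-Y, and TGACGTCA, bound by CREB and ATF factors. The last 2 were added after the windows had been read.
Ell2, chr13:75707234-75707533, plus strand: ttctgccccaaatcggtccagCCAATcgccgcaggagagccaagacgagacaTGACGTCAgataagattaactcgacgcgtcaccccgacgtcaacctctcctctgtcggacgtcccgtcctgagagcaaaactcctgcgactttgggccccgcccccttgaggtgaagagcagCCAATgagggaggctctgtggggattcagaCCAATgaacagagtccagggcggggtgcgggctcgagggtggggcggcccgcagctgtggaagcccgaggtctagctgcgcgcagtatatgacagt
Tent5c, chr3:100489143-100489442, minus strand: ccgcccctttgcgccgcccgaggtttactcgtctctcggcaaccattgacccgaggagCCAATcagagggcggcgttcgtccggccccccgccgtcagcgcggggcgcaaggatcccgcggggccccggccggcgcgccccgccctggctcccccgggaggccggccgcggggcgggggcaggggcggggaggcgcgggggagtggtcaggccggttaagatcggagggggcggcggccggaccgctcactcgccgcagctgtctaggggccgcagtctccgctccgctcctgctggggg
Pou2af1, chr9:51213440-51213739, plus strand: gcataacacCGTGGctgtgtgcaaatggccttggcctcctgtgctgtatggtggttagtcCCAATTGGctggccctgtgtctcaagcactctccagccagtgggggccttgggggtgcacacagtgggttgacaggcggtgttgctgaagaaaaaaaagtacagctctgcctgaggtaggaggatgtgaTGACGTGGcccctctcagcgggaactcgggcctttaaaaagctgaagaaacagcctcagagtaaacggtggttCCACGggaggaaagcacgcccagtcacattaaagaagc

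The Ell2 window held 3 CCAAT boxes and 1 TGACGTCA, and the Tent5c window 1 CCAAT box and no match to the other motifs. The Pou2af1 window held 1 TGACGTGG, which starts 61 bases before the start and also contains 1 of its 3 CCACG matches, and 2 CCAAT boxes that overlap on opposite strands. Among all 32851 windows, 37.4% held a CCAAT box, 32.8% CCACG, 1.79% TGACGTCA, 1.74% the octamer and 0.676% TGACGTGG. The octamer occurred in 1 window among the 10 genes, a Tent5a window. These matches are descriptions of the letters and not bound sites.

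The gene with the largest fold change of the 10 was Tent5c, a cytoplasmic poly(A) polymerase that extends the tails of immunoglobulin and other secretory mRNAs at the endoplasmic reticulum (GRCm38 chromosome 3, 100451628 to 100489324, minus strand). Its level was 4.30, 1.93 and 3.0 scaled TPM in the 3 MBC libraries and reached 196, 249, 212 and 186 in the 4 PC libraries. All MBC libraries were low and all PC libraries high, with no library in between. The means were 3.08 ± 1.19 (SD, n = 3) and 211 ± 27.8 scaled TPM (SD, n = 4), which is 68.6 times higher in PCs. The log2 fold change was 5.73 ± 0.35 SE (adjusted p = 2.0e-05 by limma), and it was 5.74 (adjusted p = 9.7e-05) without the library labelled MBC replicate 3.

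Its paralog Tent5a, an enzyme of the same family (chromosome 9, 85320439 to 85327348, minus strand), was low in both groups. It was 5.30, 1.09 and 0.0780 scaled TPM in the MBC libraries and 0.739, 1.43, 1.5 and 1.49 in the PC libraries. The PC libraries lay inside the range of the MBC libraries, whose highest and lowest values differed more than those of any PC pair. The log2 fold change was -0.09, with a 95% interval from -1.46 to 1.27 (limma, adjusted p = 0.943), and its sign depended on the pseudocount and on single libraries. Tent5c made up 44.8%, 64.0% and 97.5% of the summed TPM of this pair in the MBC libraries in order, against 99.2% to 99.6% in the PC libraries. This share does not depend on how libraries are scaled. The means were 30.6 percentage points apart (p = 0.0286 by exact permutation, two-sided, which is the lowest that 35 assignments allow), and the adjusted p over the 6 shares was 0.0571. They were 18.7 points apart without MBC replicate 1 and 45.0 without the library labelled MBC replicate 3. In the library labelled MBC replicate 3, whose share was nearest to PCs, Tent5a was low and Tent5c was at the level of the other MBC libraries.

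Other genes of the poly(A) tail were read from a list of 27 polymerases, deadenylase subunits, tail binding proteins and partners, 25 of which were tested; Tent5b and Tent5d were too low. Of the 25, 4 were called higher and 2 lower in PCs, against 6.41% and 2.14% of all genes, with a median log2 fold change of -0.33. The 2 highest were Fndc3b and Fndc3a, which encode endoplasmic reticulum membrane proteins known as binding partners of TENT5C. Fndc3b was 1.63, 0.324 and 0.0439 scaled TPM in the MBC libraries and 30.8, 21.3, 29.4 and 26.0 in the PC libraries. Its log2 fold change was 4.17 ± 0.50 SE (adjusted p = 7.3e-04 by limma). Fndc3a was 20.8, 40.6 and 6.52 scaled TPM in the MBC libraries and 148, 133, 154 and 112 in the PC libraries, a log2 difference of 2.85 ± 0.53 SE (adjusted p = 0.00897 by limma). For both genes every PC library was above every MBC library, and both were called in each of the 16 alternative fits.

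The other 4 called genes of the list went both ways. Btg1 and Btg2 encode related antiproliferative proteins that recruit deadenylases, and they were called in opposite directions. Btg1 fell from 118 ± 62.2 (SD, n = 3) to 20.2 ± 5.35 scaled TPM (SD, n = 4), with a log2 difference of -2.34 (adjusted p = 0.0148 by limma). Btg2 was higher in PCs, at 24.5 ± 11.3 and 76.6 ± 8.93 scaled TPM (log2 fold change 1.69, adjusted p = 0.0201). Cnot8, a catalytic subunit of the CCR4-NOT deadenylase, had a log2 fold change of 2.02 (limma, adjusted p = 0.0492), and Tut4, which adds uridines to RNA ends, one of -1.48 (adjusted p = 0.0449). Cnot8 was called in 2 of the 16 alternative fits, Tut4 in 5, Btg2 in 7 and Btg1 in 12, and each kept its sign in all 16. Without the library labelled MBC replicate 3, Tut7, a relative of Tut4, was also called lower (-2.0, adjusted p = 0.00877 by limma). Pabpc1, the main cytoplasmic poly(A) binding protein, averaged 1381 ± 185 scaled TPM over the MBC libraries (SD, n = 3), against 901 ± 98.9 over the PC libraries (SD, n = 4), and was not called (limma, adjusted p = 0.246).

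Of the elongation factors, Ell2 (chromosome 13, 75706757 to 75772364, plus strand) was called. It was 18.2, 29.8 and 25.4 scaled TPM in the MBC libraries and 177, 251, 199 and 201 in the PC libraries. The lowest PC library was far above the highest MBC library, and MBC replicate 3 lay between the other MBC libraries. The means were 24.4 ± 5.86 (SD, n = 3) and 207 ± 31.2 scaled TPM (SD, n = 4), 8.48 times higher in PCs, and the log2 difference was 3.05 ± 0.31 SE (adjusted p = 3.0e-04 by limma). It stayed called in all 16 alternative fits. An antisense gene, an intronic transcript and a small nucleolar RNA gene overlap Ell2 in the annotation, and whether reads were assigned by strand is not given in the sources used here.

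Ell, the paralog of Ell2 and the founding member of this family (chromosome 8, 70539457 to 70592858, plus strand), was much lower. It was 0.307, 0.236 and 3.25 scaled TPM in the MBC libraries and 7.91, 2.99, 23.0 and 5.63 in the PC libraries. MBC replicate 3 lay inside the PC range, and PC replicate 3 was well above the other PC libraries. The log2 fold change was 2.19 ± 0.74 SE (adjusted p = 0.108 by limma), and it was 2.77 (adjusted p = 0.0346) without the library labelled MBC replicate 3. Ell2 made up 95.4% of the summed TPM of both genes in each group (SD 5.86 for MBCs, n = 3, and 4.02 for PCs, n = 4; exact permutation test, p = 0.971), with a range of 88.7% to 99.2% over the 7 libraries. Thus Ell2 was the main transcript of the pair in MBCs as well as in PCs.

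EAF1 and EAF2 bind ELL proteins and raise their activity. Eaf2 (chromosome 16, 36792884 to 36875003, minus strand) was 22.2, 0.263 and 94.7 scaled TPM across the MBC libraries and 154, 268, 191 and 157 in the PC libraries. The groups did not overlap, but the MBC libraries were far apart from each other, at 39.0 ± 49.4 scaled TPM (SD, n = 3), and the highest was the library labelled MBC replicate 3. The log2 fold change was 3.74 ± 1.16 SE (adjusted p = 0.0827 by limma) with all libraries and 5.12 ± 0.98 SE (adjusted p = 0.0104) without that library. Without MBC replicate 2, the library with the fewest genes above 0, it was 2.00 (adjusted p = 0.0751 by limma). PCs were at 192 ± 53.2 scaled TPM (SD, n = 4). The gene overlaps Iqcb1 on the other strand.

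Eaf1 (chromosome 14, 31494399 to 31509858, plus strand, with Mettl6 overlapping on the other strand) was 2.90, 11.2 and 9.19 scaled TPM in the MBC libraries and 5.71, 10.8, 5.44 and 11.1 in the PC libraries. The groups overlapped, with MBC replicate 1 the lowest of all libraries. The log2 fold change was 0.18, with a 95% interval from -1.09 to 1.44 (limma, adjusted p = 0.879); its sign turned with the scaling. Eaf2 made up 88.4%, 2.30% and 91.2% of the TPM of the pair in the MBC libraries in order and 93.4% to 97.2% in PCs. The means were 35.2 percentage points apart (p = 0.0286 by exact permutation, again the lowest it can give; 0.0571 after adjustment), and 5.99 points apart without MBC replicate 2. Among 23 tested genes of the elongation machinery, such as the kinase Cdk9, the AFF scaffolds and the negative elongation factors, 0 were called with all libraries by limma, 2 were higher and 4 lower at an unadjusted p under 0.05, and the median log2 fold change was -0.13. Without the library labelled MBC replicate 3, limma called 2 higher: Larp7 (1.51), part of a complex that holds the elongation kinase inactive, and Nelfe (1.86), a pausing factor. It called 3 lower: the scaffold Aff4 (-1.36), the cyclin Ccnt2 (-1.72) and Ice1 (-1.57). Adjusted p by limma ran from 0.0292 to 0.0482 for these genes. Of all genes, 13.8% were called higher and 7.94% lower in that fit.

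**Figure D2:**
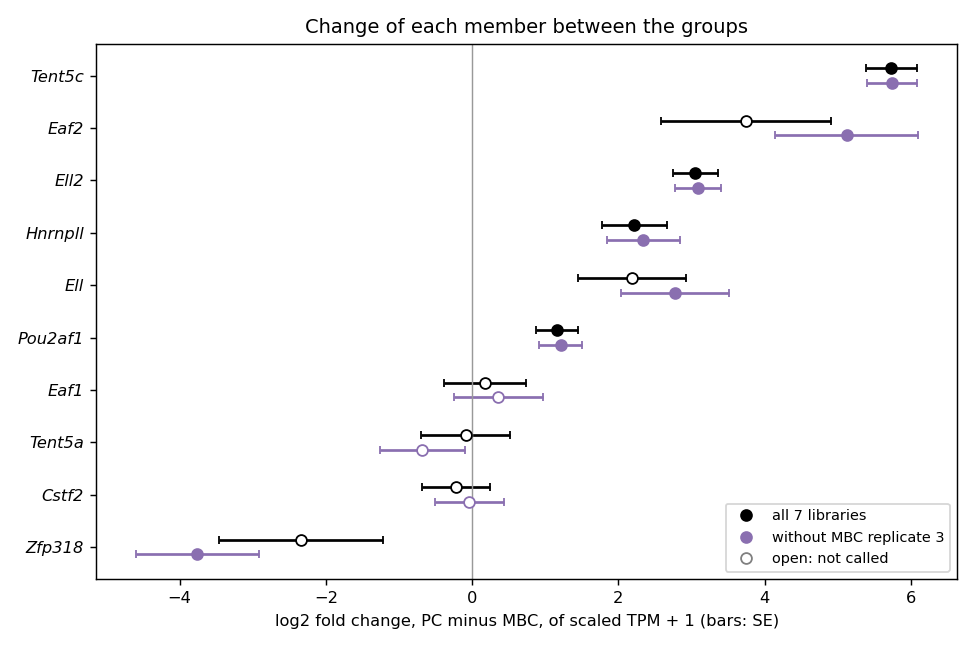
Log2 fold change (horizontal axis, PC minus MBC, on log2 of scaled TPM + 1) of the 10 genes with all 7 libraries (black) and without MBC replicate 3 (purple); bars give the SE, and open points were not called. Tent5c and Ell2 keep values of 5.73 and 3.05 against 5.74 and 3.09, while Eaf2, Ell and Zfp318 are filled only in the fit without that library.

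Cstf2 encodes the subunit of the cleavage stimulation factor that binds RNA downstream of the cut and whose amount has been linked to the choice of the heavy chain poly(A) site (X chromosome, 134059187 to 134086819, plus strand, with Nox1 overlapping on the other strand). It was 10.0, 7.33 and 13.0 scaled TPM in the MBC libraries and 5.13, 10.3, 7.92 and 11.3 in the PC libraries. The groups overlapped, and MBC replicate 3 was the highest of all libraries. The means were 10.1 ± 2.85 (SD, n = 3) and 8.64 ± 2.73 scaled TPM (SD, n = 4). The log2 fold change was -0.22, with a 95% interval from -1.27 to 0.82 (limma, adjusted p = 0.812), so a rise of Cstf2 in PCs by more than 0.82 on the log2 scale lay outside that interval.

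Its autosomal copy Cstf2t took the rest of the pair. Cstf2 made up 89.0%, 24.3% and 70.7% of their TPM in the MBC libraries and 42.8%, 60.6%, 67.3% and 75.9% in the PC libraries, with means of 61.3% and 61.7% (exact permutation test, p = 1.00). The difference ran from -18.2 points without MBC replicate 2 to 14.1 without MBC replicate 1. How reads common to both copies were shared between them depends on the authors' counting, so this split is uncertain. Of the 19 cleavage and polyadenylation genes tested beside Cstf2, 0 were called by limma with all libraries, 2 were lower and 0 higher at an unadjusted p under 0.05, and their fold changes ran from -1.28 to 0.93 on the log2 scale with a median of -0.12. Without the library labelled MBC replicate 3, 3 were called lower: Cpsf6 (-1.50) and Pcf11 (-1.14), of the cleavage factors, and Rbbp6 (-1.58). In that fit 7.94% of all genes were called lower.

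HNRNPLL is a splicing regulator known for exon skipping in Ptprc (chromosome 17, 80029487 to 80062334, minus strand). Hnrnpll was listed at 0 for the first 2 MBC replicates, the libraries with the fewest genes above 0. It was 0.273 scaled TPM in MBC replicate 3. It was 3.74, 6.23, 2.62 and 4.31 scaled TPM in the PC libraries. All PC libraries were above all MBC libraries, yet the gene was low throughout and passed the filter on low values through PC libraries alone. It was called higher in PCs (limma, adjusted p = 0.0155); the fitted log2 fold change of 2.22 rests on the pseudocount and was 4.74 with a pseudocount of 0.1. The call was lost in 6 of the 16 alternative fits, among them those without PC replicate 2 (limma, adjusted p = 0.0583), without PC replicate 4 (0.0508), with every gene above 0 tested (0.0737) and within the more frequent title prefix (0.0524), and both block fits. The titles carry codes with 1 of 2 prefixes, which the labels do not explain.

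The related Hnrnpl was far higher, with 46.5 ± 28.2 scaled TPM over the MBC libraries (SD, n = 3) and 45.9 ± 12.3 over the PC libraries (SD, n = 4). Hnrnpll made up 0%, 0% and 0.452% of the TPM of the pair in the MBC libraries. It made up 9.07%, 11.6%, 4.02% and 10.7% in the PC libraries (exact permutation test, p = 0.0571, adjusted p = 0.0857). Since Hnrnpll passed the filter through PC libraries alone, this p gives no separate support for its difference. Of 21 splicing regulators tested, with Hnrnpl among them, 0 were called by limma with all libraries, 1 was lower and 0 higher at an unadjusted p under 0.05, and the median log2 fold change was -0.05. Without the library labelled MBC replicate 3, Srsf7 was called higher (2.39), and Ptbp3 (-1.19) and Snrnp70 (-1.04) lower. In that fit 13.8% of all genes were called higher and 7.94% lower.

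Zfp318 encodes a zinc finger protein that is needed for IgD expression (chromosome 17, 46383731 to 46420920, plus strand). Its level reached 50.6 and 82.8 scaled TPM in the first 2 MBC replicates and was 2.43 in the library labelled MBC replicate 3. Over the PC libraries it was 17.6, 2.02, 3.63 and 1.10 scaled TPM. MBC replicate 3 thus lay inside the PC range, and PC replicate 1 was the highest PC library. With all libraries the log2 fold change was -2.34 ± 1.12 SE (adjusted p = 0.238 by limma). Without the library labelled MBC replicate 3, Zfp318 was lower in PCs by limma, with a log2 difference of -3.76 ± 0.84 SE (adjusted p = 0.019), and the mean of MBC replicates 1 and 2 was 10.9 times that of PCs. Within the 5 libraries of the more frequent prefix, which leave out MBC replicate 3 and PC replicate 4, it was -3.36 (adjusted p = 0.0466). Without MBC replicate 1 it was -1.81 (adjusted p = 0.439) and without MBC replicate 2 it was -1.46 (adjusted p = 0.52), so its size rests on which MBC libraries are kept.

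Ighd and Ighm, whose transcripts ZFP318 controls, were set beside it. Both groups had been sorted as IgD negative, so the gate itself selected on the product of Ighd. The Ighd values hold for the cells that passed it and are no free measure of what ZFP318 does. Ighd made up 4.19%, 1.62% and 1.47% of the summed TPM of Ighd and Ighm in the MBC libraries in order. Over the PC libraries it made up 0.0388%, 0.0582%, 0.0528% and 0.0237%. The library labelled MBC replicate 3 was close to MBC replicate 2 in this share, although its Zfp318 level was close to that of PCs. The groups did not overlap in this share, and PCs minus MBCs was -2.39 percentage points (exact permutation, p = 0.0286, its lowest value; 0.0571 after adjustment), or -1.50 without MBC replicate 1, whose share was the highest. The Ighd level itself overlapped between the groups, at 9.55 to 85.8 scaled TPM in MBCs and 14.2 to 38.8 in PCs, while Ighm was 639 to 2420 in MBCs and 36201 to 99833 in PCs.

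**Figure D3:**
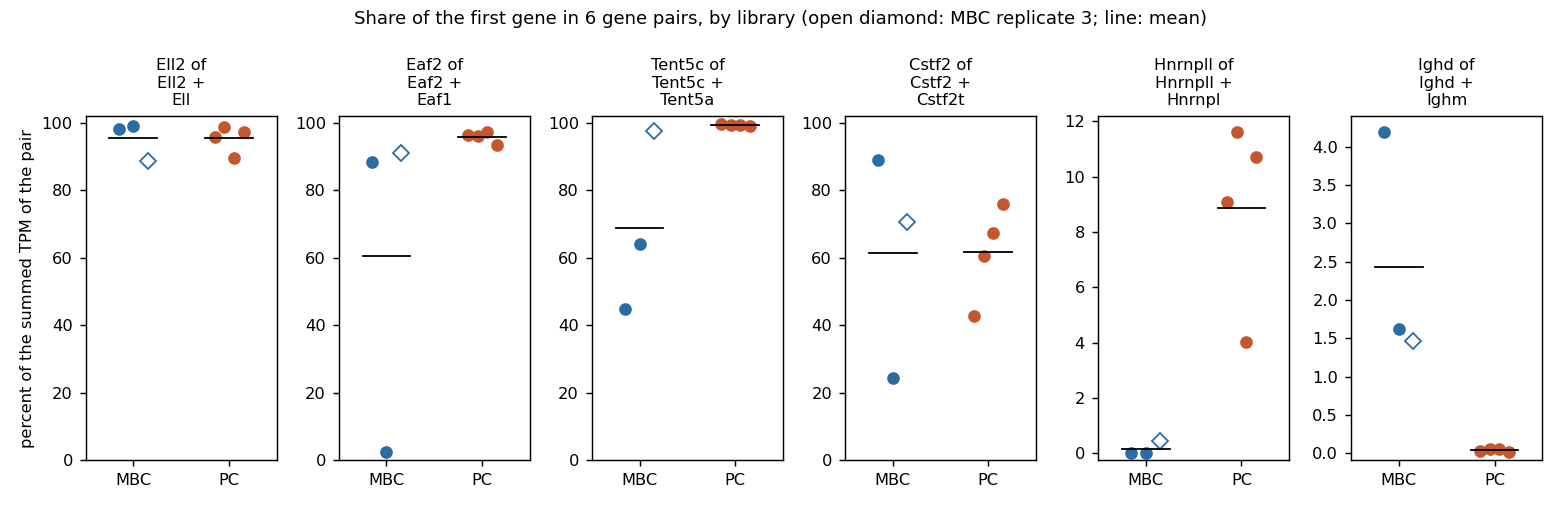
Percent of the summed TPM of a gene pair (vertical axes, which differ in range) taken by its first gene in the 3 MBC (blue) and 4 PC libraries (orange); open diamonds mark MBC replicate 3 and lines the group means. Ell2 takes 88.7% to 99.2% of its pair in all libraries, Tent5c at least 99.2% in PCs, and Ighd at most 0.0582% in PCs.

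Pou2af1 (chromosome 9, 51213708 to 51240080, plus strand) was the most abundant of the 10 genes in both groups, at the 99.3rd percentile of all genes tested in MBCs and the 99.0th in PCs. It was 507, 529 and 573 scaled TPM in the MBC libraries and 1278, 987, 1383 and 1172 in the PC libraries. The groups did not overlap, and MBC replicate 3 was near the other MBC libraries. The means were 536 ± 33.5 (SD, n = 3) and 1205 ± 169 scaled TPM (SD, n = 4), and the log2 difference was 1.16 ± 0.29 SE (adjusted p = 0.0394 by limma). This direction rests on the scaling. With TPM as deposited the log2 fold change was -0.17 where the median of all genes was -0.91, which puts Pou2af1 0.74 above that median, and with quantile normalization it was -0.42, which is 0.27 below a median of -0.15 (limma, adjusted p = 0.728 and 0.476). Of the 7 fits that left out a library, 1 called it.

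The DNA-binding partners of POU2AF1 were not called higher in PCs. Pou2f2, which encodes OCT2, fell from 86.0, 81.3 and 35.2 scaled TPM in the MBC libraries to 25.1, 13.6, 21.1 and 19.0 in the PC libraries (log2 fold change -1.65 ± 0.42 SE, adjusted p = 0.0413 by limma). All PC libraries were below all MBC libraries; the call held in 1 of the 7 fits that left out a library. Pou2f1, which encodes OCT1, averaged 47.0 ± 34.6 (SD, n = 3) and 38.2 ± 3.46 scaled TPM (SD, n = 4), with a log2 difference of -0.05 ± 0.47 SE (adjusted p = 0.959 by limma). The list of octamer factors and partners held 5 tested genes, of which only Pou2f1 and Pou2f2 encode octamer factors. Of the 5, 3 were called lower and 0 higher (4 and 0 at an unadjusted p under 0.05 in limma), against 2.14% and 6.41% of all genes called. The median of -1.65 was the value of Pou2f2 itself. The other called genes were Ebf1 (-2.37, limma, adjusted p = 0.00605), an early B lineage factor, and Spib (-2.12, adjusted p = 0.0158), an ETS factor of B cells. Spi1, a related ETS factor, was not called (-1.39, adjusted p = 0.0602), but it was (-1.54, adjusted p = 0.0326) in the fit that dropped MBC replicate 3. In that fit 4 of the 5 were called lower, against 7.94% of all genes.

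**Figure D4:**
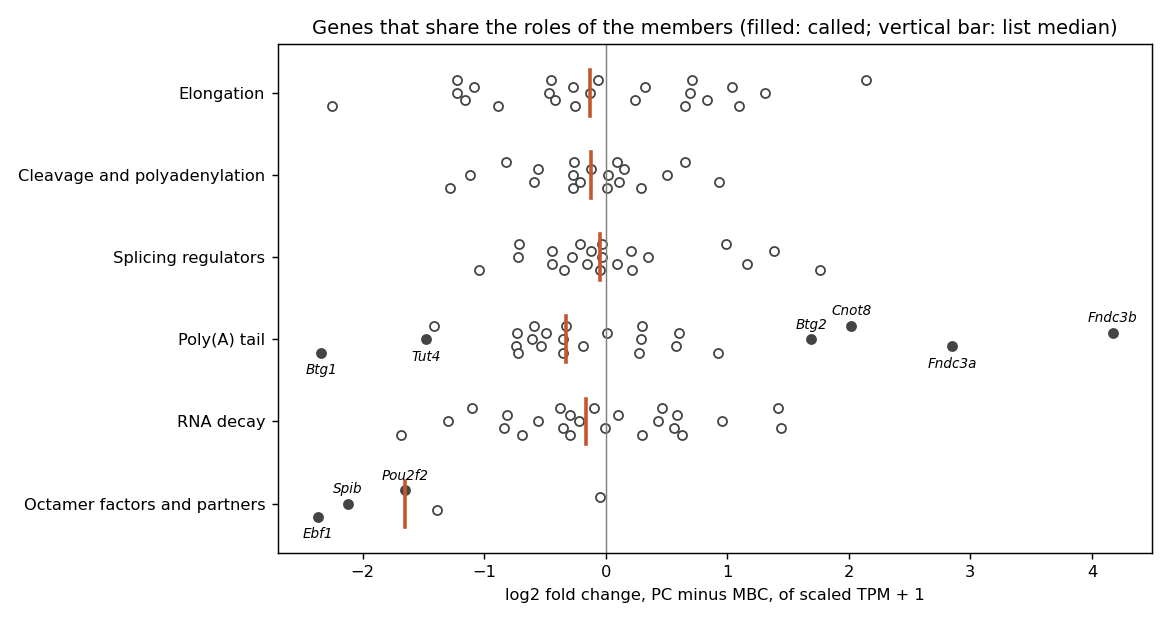
Log2 fold change (horizontal axis, PC minus MBC, on log2 of scaled TPM + 1) of each tested gene of 6 lists, with all 7 libraries; filled points were called and orange bars are list medians. Called genes occur in the poly(A) tail list, from Btg1 at -2.34 to Fndc3b at 4.17, and in the list of octamer factors and partners. In the latter Pou2f2 is the only called gene that encodes an octamer factor. The medians of the other 4 lists lie between -0.16 and -0.05 with 0 genes called.

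RNA decay genes were the remaining list. Some of them clear transcripts with premature stop codons, such as those of failed immunoglobulin rearrangements, and others act in general RNA decay. Of 24 tested, 0 were called by limma and 1 was lower at an unadjusted p under 0.05, with fold changes from -1.68 to 1.44 and a median of -0.16. Without the library labelled MBC replicate 3, Exosc4 (2.18), an exosome subunit, was called higher and Smg1 (-1.68), a kinase of nonsense-mediated decay, lower. Of all genes, 13.8% were called higher and 7.94% lower in that fit.

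Since scaled TPM is per length, levels may be set in order within a group. In PCs Pou2af1 came first at 1205 scaled TPM, followed by Tent5c (211), Ell2 (207) and Eaf2 (192), whose ranges overlapped each other and lay above all the rest. Ell (9.88), Cstf2 (8.64), Eaf1 (8.26), Zfp318 (6.09) and Hnrnpll (4.22) formed a lower group in which each range overlapped the next, and Tent5a was last at 1.29. In MBCs the order was Pou2af1 (536), Zfp318 (45.3), Eaf2 (39.0), Ell2 (24.4), Cstf2 (10.1), Eaf1 (7.75), Tent5c (3.08), Tent5a (2.15), Ell (1.26) and Hnrnpll (at most 0.273). There, neighbours overlapped except at the steps from Pou2af1 to Zfp318 and from Ell2 to Cstf2. Tent5c moved from the 25.3rd percentile of all genes tested in MBCs to the 96.4th in PCs, and Ell2 from the 76.3rd to the 96.3rd.

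Genes outside the immunoglobulin loci whose log2(scaled TPM + 1) followed a member most closely over the 7 libraries were named as a description, since the points share libraries and fall into 2 groups. For Ell2 they were H13 (Pearson's r = 0.999), a signal peptide peptidase, Bscl2 (0.998), the lipid droplet protein seipin, and Lman1 (0.997), a cargo receptor of the secretory pathway. H13 was 9.52, 16.3 and 12.7 scaled TPM in the MBC libraries and 221, 317, 259 and 249 in the PC libraries. For Tent5c they were Surf4 (0.997), another cargo receptor, Wipi1 (0.997), an autophagy protein, and Tnfrsf17 (0.996), which encodes BCMA, a survival receptor of PCs. Tnfrsf17 was listed at 0 in all MBC libraries and was 17.7, 18.9, 17.4 and 15.0 scaled TPM in the PC libraries. For Zfp318 they were Parp4 (0.993), Setd5 (0.986) and Hsf1 (0.985). These 3 shared with Zfp318 the low value in MBC replicate 3 and the highest PC value in PC replicate 1: Hsf1, the heat shock factor, was 41.8, 55.0 and 9.71 scaled TPM in the MBC libraries and 20.5, 11.7, 11.8 and 9.61 in the PC libraries.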

How the data were processed

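Bulk RNA sequencing of 3 MBC and 4 PC libraries was read from 1 table. The authors deposited TPM per Ensembl gene, rounded to 2 decimals; the submitters' processing notes name STAR 2.5.2a, RSEM 1.3.0, DESeq2 1.18.1 and GRCm38, with no roles, and the annotation release is not given in the sources used here. Groups and replicate numbers came from the sample descriptions. Symbols from GENCODE M21 (GRCm38) matched 48349 of 48795 genes, and gene coordinates are from that annotation.

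To scale a library, its TPM was divided by the median, taken over 9305 genes that were above 0 everywhere, of the ratio to the geometric mean library. The filter kept 11573 genes with at least 1 TPM in 3 or more libraries, and limma 3.58.1 (lmFit and trended eBayes, R 4.3.3) was fitted to log2(scaled TPM + 1) without covariates. The procedure was tested on simulated data. Shares of gene pairs were computed from deposited TPM and compared by exact permutation (two-sided, 35 assignments), adjusted over 6 shares. Python 3.11.15, numpy 2.4.6, pandas 2.3.3, scipy 1.17.1 and matplotlib 3.10.9 served the other steps. No 2 libraries were copies: at least 99.3% of genes above 0 differed in any pair. The titles also carry codes, 3 of which occur in both groups; the labels do not say what they mark, and neither they nor the replicate numbers were taken as pairs.

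The members, the lists, the pairs and the tests were chosen with earlier results of these data known. Named were all 10 members, the partner genes of the pairs, up to 3 called genes of a list in each direction, and the 3 genes most like Ell2, Tent5c and Zfp318; genes called only without MBC replicate 3, and Pabpc1, Pou2f1 and Spi1, were named after their values were seen. Btg2 was named likewise, beyond the limit for the higher genes of the poly(A) tail list. Alternatives were other scalings, a pseudocount of 0.1, every gene above 0, array weights, blocks, 1 title prefix and leaving out each library.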

Additional observations from a re-analysis of the deposited data

Results flagged for a closer look

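Among 16 results examined in the 4 PC libraries, 2 had a library whose gap to its nearest neighbour took a larger part of the range of the group than the 95% limit of Dixon's test allows; about 1 in 20 would by chance. For Zfp318 this was PC replicate 1, at 17.6 scaled TPM against 1.10 to 3.63 in the others (ratio 0.847). For Tent5a it was again PC replicate 1, at 0.739 scaled TPM against 1.43 to 1.5 (ratio 0.903). Without PC replicate 1 the log2 fold change of Zfp318 was -2.99 (limma, adjusted p = 0.185) and that of Tent5a 0.03 (adjusted p = 0.984). The part of depth or of other cells in these gaps was not tested.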

How the results depend on the processing

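Of 160 values (10 genes under 16 alternatives each), 126 kept their direction and their side of the threshold. In the others, 18 lost the call in the same direction, 7 gained it and 9 changed sign. Ell2 and Tent5c were called under all 16, at 1.75 to 3.22 and 4.58 to 6.12. Hnrnpll lost its call under 6 and Pou2af1 under 14, 2 of which also changed its sign. The signs that changed were those of Pou2af1 (-0.17 with TPM as deposited, -0.42 with quantile normalization), Eaf1 (-0.98 with TPM as deposited, -0.07 without immunoglobulin genes, -0.02 with quantile normalization, and -0.33 to 0.49 over the fits that left out a library) and Tent5a (0.36 with a pseudocount of 0.1, and -0.68 to 0.60 over the fits that left out a library, with 0.03 without PC replicate 1). Eaf2 was called in 3 alternatives (array weights, 3.44, adjusted p = 0.0461; the more frequent prefix, 5.21, adjusted p = 0.0323; without MBC replicate 3) and Zfp318 in 3, one of them TPM as deposited (-3.44, adjusted p = 0.0407).

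Members called higher numbered 4, and 2 with every gene above 0 tested, with the replicate block and with the title code block; leaving out a library gave 2 to 6. Members called lower numbered 0, and 1 with TPM as deposited and within the more frequent prefix; leaving out a library gave 0 to 1. Over all genes tested, 742 were higher and 248 lower. TPM as deposited gave 472 and 3018, immunoglobulin genes removed 393 and 431, every gene above 0 437 and 123, the replicate block 390 and 60, and the title code block 434 and 83; quantile normalization gave 490 lower, and the more frequent prefix 417 lower. Leaving out a library gave 451 to 1592 higher and 91 to 919 lower, the highest counts both without MBC replicate 3 and the lowest both without PC replicate 2. Deviations from the group means correlated at 0.11, -0.04 and -0.08 in libraries of the same replicate number and at 0.11, -0.00 and 0.22 in those of the same title code. By title code, 2 of 3 pairs were the best match of the MBC library. So few libraries cannot settle whether either marks pairs, and neither was used in the main fit. Hnrnpll lost its call with the replicate block (2.20, adjusted p = 0.123 by limma) and with the title code block (2.05, adjusted p = 0.117), as did Pou2af1 (1.17, 0.193, and 1.25, 0.127). Both blocks leave a PC library without a partner, which then adds nothing to the fit. Of all called genes 74.9% were higher, and 13.5% with TPM as deposited, 47.7% without immunoglobulin genes and 56.2% with quantile normalization. The cause was not tested. No share of a gene pair moved by more than the SD pooled over both groups with all libraries kept. A single far library widens that limit, so this does not show that the shares are stable. The Eaf2 share differed by 35.2 points with all libraries and by 5.99 without MBC replicate 2, whose share was 2.30%.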
